A study of Mus musculus with 2 samples.

Results

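Cldn10-type thick ascending limb cells are the epithelial cells of the thick ascending limb in which claudin-10 transcripts outnumber claudin-16 transcripts. They were chosen from single-cell RNA-seq of mouse kidney cortex by measured values. A barcode was kept with 1000 or more UMIs (unique molecular identifiers, 1 per captured transcript), 200 or more genes and at most 50% mitochondrially encoded UMIs. A kept barcode was a member if Slc12a1 stood at 8 or more and Slc12a3 below 5 per 10000 of its UMIs, if it held more Cldn10 than Cldn16 UMIs, and if it held 0 UMIs of Pecam1 and Ptprc. The rule found 1509 cells among 15488 kept barcodes of the series, 1037 of 5076 in one library and 472 of 10412 in the other.

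The thick ascending limb reabsorbs salt without water and so dilutes the urine. The cotransporter NKCC2 (Slc12a1) takes up sodium, potassium and chloride from the lumen, ROMK (Kcnj1) returns potassium to it, and chloride channels with barttin (Bsnd) and the sodium pump let salt leave on the blood side. Cells of this segment form a mosaic. In some, tight junctions with claudin-10 pass sodium between cells, and in others claudin-16 and claudin-19 pass calcium and magnesium. Near the glomerulus the segment holds the macula densa, whose cells sense luminal salt and signal to the renin-producing cells.

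The study compared 2 libraries of kidney cortex from mice aged 16 weeks, 1 library per group. The group called here PT I-PpoI expressed I-PpoI, an endonuclease that makes DNA double-strand breaks, in epithelial cells of the proximal tubule. The other group was wild type. The promoter or Cre that drives the transgene, the sex and the number of mice per library are not given in the sources used here. I-PpoI was thus directed to a neighbouring segment and not, by design, to the cells described here. With 1 library per group there is no spread between samples and no test. All intervals below are 95% intervals for counting error, and each UMI is counted as 1 molecule. The libraries held 93257620 and 107977310 UMIs in all, and their kept barcodes had medians of 11633 and 3344 UMIs. No member barcode was shared by the libraries, and 19 kept barcodes were.

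The Cldn10-type cells made up 20.4% (exact binomial interval 19.3 to 21.6%) of kept barcodes of PT I-PpoI and 4.53% (4.14 to 4.95%) of those of wild type. Their number follows from the rule and from which barcodes were kept. At a mitochondrial limit of 30% the shares were 10.99% and 2.76%, and with every barcode thinned to 1000 UMIs they were 13.2% and 3.52%. Without barcodes holding over 100 proximal tubule marker UMIs per 10000, the wild-type share was 7.88%. That limit also removed other kept barcodes from the total, so the share rose although wild-type members fell from 472 to 417. Depth was unequal: the median cell held 13348 UMIs and 3161 genes in the PT I-PpoI library, but 4291.5 UMIs and 1447.5 genes in the other. Summed over cells they held 14517092 and 2973088 UMIs. Mitochondrially encoded genes took a median of 32.7% and 30.6% of a cell's UMIs.

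The label was checked against the markers of the cells. Slc12a1 (chr2:125152505-125230002) and Cldn10 belong to the rule and are given as a description. The Slc12a1 level per cell had a median per 10000 UMIs of 66.8 in PT I-PpoI (lowest 8.35, highest 267) and 59.0 in wild type (lowest 8.10, highest 205). The median of Cldn10 was 9.87 in PT I-PpoI (lowest 0.392, highest 119) and 10.4 in wild type (lowest 0.814, highest 82.9). Umod (chr7:119462711-119479282), which encodes uromodulin, the most abundant protein of normal urine, was no part of the rule. Its median was 187 in PT I-PpoI (lowest 0, highest 656) and 143 in wild type (lowest 0, highest 601). Egf (chr3:129677565-129755316), which encodes the precursor of epidermal growth factor, had 73.2 in PT I-PpoI (lowest 0, highest 335) and 42.7 in wild type (lowest 0, highest 309). The ranges of these 4 genes overlapped over most of their length between the libraries.

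Ptger3 (chr3:157566892-157645888) encodes EP3, a prostaglandin E2 receptor that lowers salt uptake by this segment, and Nccrp1 (chr7:28543596-28547254) was the other marker. All coordinates are of mm10. Ptger3 UMIs were found in 92.2% and 68.6% of members in PT I-PpoI and wild type, at the unequal depths given above. With each cell thinned to 1000 UMIs the shares were 31.8% (29.0 to 34.8%) and 28.8% (24.8 to 33.1%). Nccrp1 was found in 63.2% and 34.3% of members, and in 17.4% (15.1 to 19.8%) and 12.3% (9.46 to 15.6%) after thinning. In immune cells of the same libraries, which should lack these genes, the thinned shares were 0.358% and 0.414% for Ptger3 and 0.358% and 0.138% for Nccrp1. These comparison cells numbered 279 and 725, with medians of 4121 and 2525 UMIs. They had Ptprc at 5 or more per 10000 and Slc12a1 below the limit set for members. Immune barcodes with more Slc12a1 were thus left out beforehand, so the low shares in immune cells may partly follow from that choice. Thinned Umod shares were 98.9% and 97.2% in members, against 29.4% and 8.83% in immune cells. Both libraries thus held the transcripts that the name calls for.

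**Figure D1:**
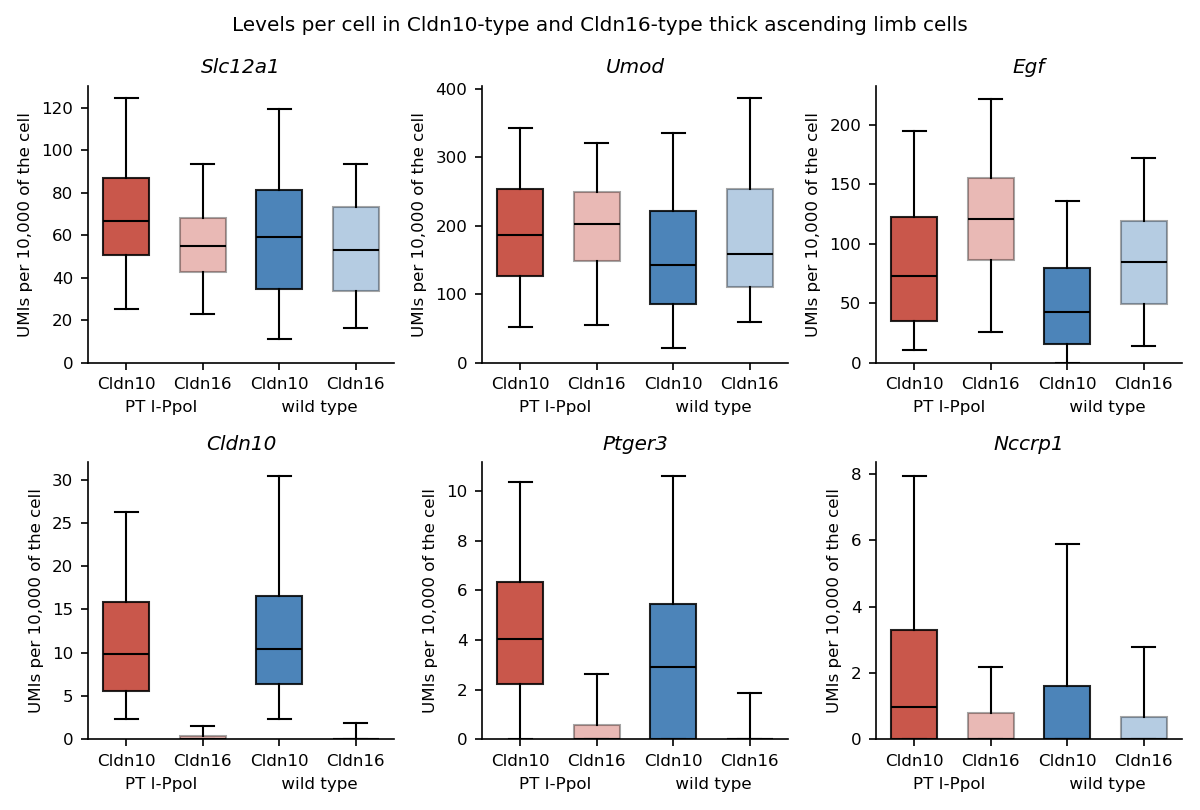
Levels per cell, in UMIs per 10000 UMIs of the cell, in Cldn10-type (dark) and Cldn16-type (pale) cells of PT I-PpoI (red) and wild type (blue). Boxes span the 25th to 75th percentile with the median as a line, and whiskers the 5th to 95th percentile. Slc12a1 and Umod lie alike in all 4 groups of cells. The Ptger3 medians are 4.05 and 2.90 in Cldn10-type cells and 0 in Cldn16-type cells.

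Cldn10 is shown with its start regions because, with Cldn16, it splits the cells. The gene lies at chr14:118787908-118875489 on the plus strand of mm10, and Cldn16 at chr16:26463135-26482765, also on the plus strand. RefSeq (GRCm38.p6) lists 2 start sites of Cldn10, 67079 bases apart, each of which begins a different first exon. The regions below run from 250 bases before to 50 bases after each start, 5′ to 3′ on the plus strand. They are in lower case throughout, since neither motif searched was found in them.
Cldn10 first start, chr14:118787621-118787920: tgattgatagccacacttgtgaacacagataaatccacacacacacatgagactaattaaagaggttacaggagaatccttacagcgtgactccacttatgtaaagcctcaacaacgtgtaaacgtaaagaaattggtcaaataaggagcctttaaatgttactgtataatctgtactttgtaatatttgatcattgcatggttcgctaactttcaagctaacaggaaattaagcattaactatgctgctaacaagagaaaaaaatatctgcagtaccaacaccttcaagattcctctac
Cldn10 second start, chr14:118854700-118854999: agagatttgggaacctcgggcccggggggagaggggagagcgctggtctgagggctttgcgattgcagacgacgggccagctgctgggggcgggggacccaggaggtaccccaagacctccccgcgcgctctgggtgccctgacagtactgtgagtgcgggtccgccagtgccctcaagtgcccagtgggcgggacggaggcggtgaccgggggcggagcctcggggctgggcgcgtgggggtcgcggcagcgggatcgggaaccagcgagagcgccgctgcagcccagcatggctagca
Cldn16 start, chr16:26462885-26463184: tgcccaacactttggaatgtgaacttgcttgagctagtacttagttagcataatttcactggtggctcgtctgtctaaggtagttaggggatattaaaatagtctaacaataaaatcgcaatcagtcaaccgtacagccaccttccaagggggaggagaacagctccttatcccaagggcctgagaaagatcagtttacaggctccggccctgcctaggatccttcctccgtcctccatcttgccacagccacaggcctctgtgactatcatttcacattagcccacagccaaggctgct
The first Cldn10 region is AT-rich, with 36% G or C and 4 CpG dinucleotides, and the second holds 72% G or C and 27 CpG. The Cldn16 region lies between them at 48.7% and 5 CpG. None of the 3 regions holds TATAAA, the TATA box, or AAGGTCA, the site of oestrogen-related receptors, on either strand. Of 32851 promoter windows of this length, 13.6% hold the first and 4.72% the second. Counts from the 3′ end do not tell which start site was used, so the values below are of both Cldn10 forms together.

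Cldn10-type cells were the larger of the 2 claudin types in both libraries. They numbered 1037 beside 187 Cldn16-type cells for PT I-PpoI, and 472 beside 98 for wild type. That is 84.7% (82.6 to 86.7%) and 82.8% (79.5 to 85.8%) of both types, so the intervals overlapped. A further 145 and 177 thick ascending limb cells held equal UMIs of the claudins and were assigned to neither. Among members, 71 and 94 held a single UMI more of Cldn10 than of Cldn16. At least 1 Cldn16 UMI was present in 34.2% and 16.9% of members. Just inside the Slc12a1 limit, at 8 to 12 per 10000, lay 12 and 27 members, with Umod at 2857 and 4544 counts per 1000000 (CPM) of their summed UMIs. Just outside it, at 4 to 8 per 10000 with the other conditions met, lay 11 and 56 barcodes, with Umod at 2549 and 1899 CPM.

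Beyond the claudins, Ptger3, Pla2g7, Esam and Irx1 were among the genes higher in Cldn10-type cells, and Foxq1, Tmem52b, Wnk1, Kcnj10 and Pth1r among those lower. The UMIs of all cells of a type and library were added, scaled to CPM and compared as a log2 ratio of Cldn10-type over Cldn16-type cells. Of 9131 genes with enough UMIs, without the 6 genes of the rule, 115 were 2-fold or more higher in Cldn10-type cells in both libraries, which is 1.26%. Another 45, or 0.493%, were 2-fold or more lower in both. Within single libraries, 2.03% were higher and 1.04% lower in PT I-PpoI, while 6.15% and 2.1% were so in wild type, whose sums were smaller. With genes of 200 or more UMIs only, these counts were 21 and 12, and with genes at 0 set at the floor of 3 counts they were 109 and 45.

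In Cldn10-type against Cldn16-type cells, Ptger3 was at 435 against 43.0 CPM in PT I-PpoI and at 360.2 against 43.9 CPM in wild type, log2 ratios of 3.33 (3.08 to 3.60) and 3.01 (2.53 to 3.59). Pla2g7, which encodes a secreted hydrolase of platelet-activating factor, had log2 ratios of 3.08 (2.61 to 3.64) and 3.50 (2.39 to 5.27). Esam, a junctional adhesion molecule best known in endothelium, had 3.24 and 2.90, while Pecam1 was 0 in every member by the rule. The long noncoding RNA Eprn had 2.78 and 3.58, and Ranbp3l 1.90 and 2.86. Enpp2 encodes autotaxin, which makes lysophosphatidic acid, and had 2.21 (1.97 to 2.47) and 1.65 (1.26 to 2.09). Tnfaip2 had 2.67 and 1.78, Anxa2 1.86 and 1.65, and Egfl6, a secreted protein with EGF repeats, 1.76 and 1.55. Nccrp1 had 2.29 (2.04 to 2.56) and 1.47 (0.98 to 2.05), and Cox7a1, a subunit of cytochrome c oxidase, 1.50 and 1.67. With Irx1, described below, these were the 12 genes named on this side, each past 2-fold in both libraries.

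Lower in Cldn10-type cells were Foxq1, a forkhead transcription factor, and Tmem52b, which encodes a membrane protein. Foxq1 stood at 57.5 against 372 CPM in PT I-PpoI and at 42.7 against 284 CPM in wild type, log2 ratios of -2.69 (-2.82 to -2.56) and -2.73 (-3.06 to -2.41). Tmem52b stood at 226 against 1296 CPM in PT I-PpoI and at 127 against 1106 CPM in wild type, log2 ratios of -2.52 and -3.12. Wnk1, a kinase upstream of the SPAK kinase that activates NKCC2, stood at 295 against 962 CPM in PT I-PpoI and at 309 against 956 CPM in wild type. Kcnj10 encodes the basolateral potassium channel Kir4.1 and had log2 ratios of -1.49 (-1.63 to -1.35) and -1.79 (-2.16 to -1.42). Pth1r, the receptor for parathyroid hormone, had -1.60 (-1.69 to -1.51) and -1.20 (-1.38 to -1.01). Itpr2, an inositol trisphosphate-gated calcium channel, had -1.66 and -1.73, and the transcriptional regulator Zfp503 -1.62 and -1.80. Col5a2 had -1.87 and -1.56, Enox1 -1.46 and -1.41, Susd4 -1.54 and -1.31, Fam107a -1.41 and -1.28, and Ly6c1 -1.21 and -1.69.

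**Figure D2:**
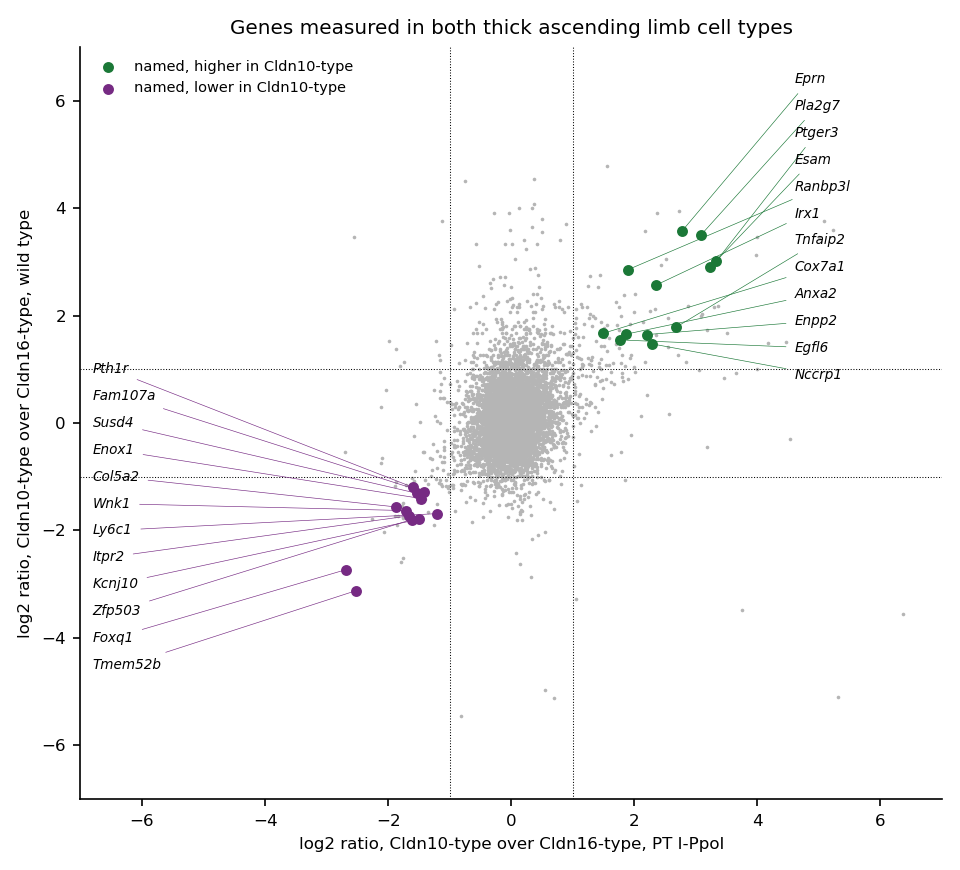
Each dot is 1 of 9131 genes, with its log2 ratio of Cldn10-type over Cldn16-type cells in PT I-PpoI (x axis) and in wild type (y axis). Dotted lines mark 2-fold. The 24 named genes lie in the upper right and lower left corners, past 2-fold in both libraries. Single dots far from the diagonal hold few UMIs in the smaller sum.

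The salt transport list of 17 genes had 15 measured in this comparison, with medians of 0.07 and 0.09. Fxyd2, the gamma subunit of the sodium pump, was higher in Cldn10-type cells, at 5352 against 2399.5 CPM in PT I-PpoI and at 5391 against 2619 CPM in wild type, log2 ratios of 1.16 (1.12 to 1.19) and 1.04 (0.97 to 1.11). Bsnd, which encodes barttin, a chloride channel subunit, had -0.05 and 0.11. Kcnj1 was alike in the types, at 536 against 512 CPM in PT I-PpoI and at 534 against 535 CPM in wild type. Slc4a4, a bicarbonate transporter of the proximal tubule, was also past 2-fold in both, at 1.06 and 1.78. Of 13 proximal tubule markers measured here, 9 were past 2-fold higher in Cldn10-type cells in both libraries, beside 1.26% of all genes. The part of proximal tubule RNA in the Slc4a4 ratio was not tested.

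Of calcium and magnesium genes, Casr, the calcium-sensing receptor, had log2 ratios of -0.81 (-0.97 to -0.65) and -0.69 (-1.02 to -0.34). Cldn19 was at 223 against 234 CPM in PT I-PpoI and at 194 against 207 CPM in wild type, ratios of -0.07 and -0.10. Cldn14, whose product blocks the claudin-16 pathway, had 10 and 15 UMIs in PT I-PpoI and 3 and 15 in wild type in the Cldn10-type and Cldn16-type sums. Among hormone receptors, Adrb1, the beta-1 adrenoceptor, was at 7.99 against 3.07 CPM in PT I-PpoI and at 7.06 against 1.37 CPM in wild type, ratios of 1.31 and 1.81. The 1.37 CPM rests on 1 UMI. Of secreted proteins, Ptgds, a prostaglandin D2 synthase, had ratios of 3.97 and 3.13, while Egf had -0.52 and -0.72 and Wfdc2 -0.95 and -0.95. In Cldn16-type cells Ptgds stood at only 3.76 and 2.74 CPM, with at most 1 UMI in a cell. Umod differed less, at -0.01 and -0.19.

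Among 29 transcription factors measured, the Iroquois genes split between the types. Irx1 had log2 ratios of 2.34 (2.05 to 2.67) and 2.56 (1.82 to 3.54) and Irx2 1.51 and 1.43, whereas Irx3 had -1.84 and -1.73. Hes1, a Notch target, had 0.91 and 1.29. Of energy genes, Aldoc, an aldolase of glycolysis, had 1.76 and 1.73. It was the 1 gene past 2-fold in both libraries among 20 of its list, beside 1.26% of all genes higher. The nuclear respiratory chain list had medians of -0.03 and -0.10 over 44 genes and the mitochondrially encoded list 0.03 and -0.07 over 13 genes. No member of either was past 2-fold in both libraries, beside 1.26% of all genes higher and 0.493% lower. In lists of these sizes a count of 0 lies near those shares. The tight junction list had medians of -0.04 and -0.10 over 15 genes, calcium and magnesium handling -0.13 and -0.16 over 14 genes, hormone receptors and signalling -0.02 and 0.00 over 24 genes, and NKCC2 kinases and trafficking -0.12 and -0.17 over 21 genes.

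Members that also held Cldn16 lay between the types for most of these genes. To limit the part of depth, only cells of 5000 or more UMIs were used: 536 and 147 members with Cldn16 at 0, 343 and 69 with 1 or more Cldn16 UMIs, and 173 and 60 Cldn16-type cells. Across these 3 sets, Ptger3 stood at 495, 359 and 43.2 CPM in PT I-PpoI and at 415, 289 and 48.9 CPM in wild type. Nccrp1 stood at 297, 108 and 41.9 CPM in PT I-PpoI and at 175, 65.4 and 42.4 CPM in wild type. Fxyd2 stood at 7017, 3354 and 2390.1 CPM in PT I-PpoI and at 6128, 3638 and 2534 CPM in wild type. These genes were thus highest where Cldn16 was at 0 and lowest in the Cldn16 type. In the other direction, Tmem52b stood at 115, 368 and 1292 CPM in PT I-PpoI and at 87.4, 237 and 1157 CPM in wild type. Foxq1 stood at 25.9, 98.5 and 374 CPM in PT I-PpoI and at 25.1, 92.1 and 305 CPM in wild type. Casr stood at 62.8, 107 and 146 CPM in PT I-PpoI and at 68.0, 113 and 143 CPM in wild type. Wnk1 and Pth1r were ordered in the same way. Apart from Casr, these genes were given above for differing between the types in these same cells, Fxyd2 as past 2-fold in its list. For them the order of the ends followed from that choice, and only the place of the middle set was free. Irx1 was not ordered in this way, being highest in the middle set of both libraries at 199 and 134 CPM. The middle set was deeper, with medians of 18015 and 12125 UMIs against 13436.5 and 8524 in members with Cldn16 at 0.

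**Figure D3:**
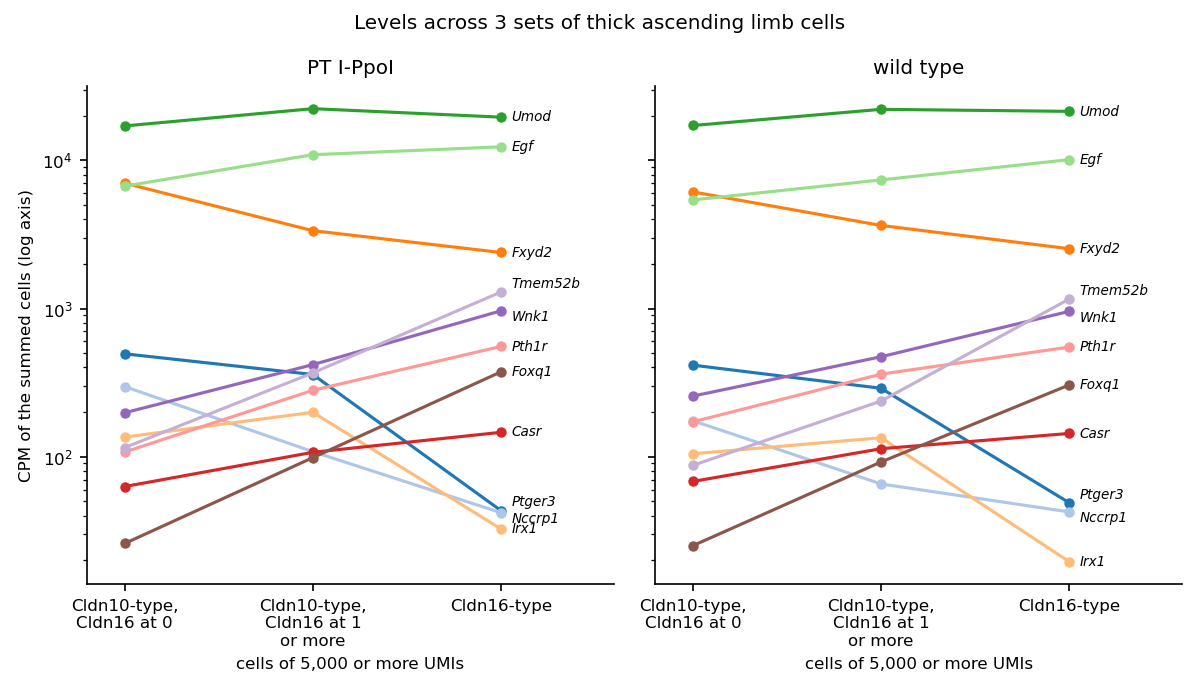
Summed CPM (log axis) of 11 genes in members with Cldn16 at 0, members with 1 or more Cldn16 UMIs, and Cldn16-type cells, all of 5000 or more UMIs, in PT I-PpoI (left) and wild type (right). Ptger3, Nccrp1 and Fxyd2 step down and Tmem52b, Foxq1, Wnk1, Pth1r and Casr step up from left to right in both panels. Irx1 and Umod peak in the middle set. Ptger3, Nccrp1, Fxyd2, Irx1, Tmem52b, Foxq1, Wnk1 and Pth1r were chosen for differing between the types.

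Members also differed among themselves, in genes that differed between the claudin types and in others. Variation beyond counting error was taken as the squared coefficient of variation above that of counting, over 851 genes of 100 CPM or more in both libraries. Ranked by the smaller of the libraries' values, S100g led at 35.3, followed by Tmsb4x at 11.7 and Cryab at 8.48. S100g encodes calbindin-D9k, a marker of the connecting tubule, and 5 cells held 58.8% and 59.0% of its UMIs in PT I-PpoI and wild type. In free RNA, read in barcodes of 100 or fewer UMIs, S100g was at 4361 and 1457 CPM, against 257 and 171 CPM in members. Tmem52b followed at 3.08, and Lgals3, Sfrp1, Jun, Ranbp3l, Hes1 and Nccrp1 were among the first 14. Of these, Tmem52b, Ranbp3l and Nccrp1 were past 2-fold between the claudin types in both libraries, whereas Lgals3 had log2 ratios of -0.23 and 0.13 and Jun -0.01 and 0.29. Across members of 5000 or more UMIs (879 and 216 cells, each set from 1 library and sharing its free RNA), Umod and Egf levels had Spearman correlations of 0.57 and 0.67. Cldn10 and Ptger3 had 0.49 and 0.49, and Cldn10 and Nccrp1 0.53 and 0.25.

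A small subset carried the transcripts of the macula densa. Nos1, the neuronal nitric oxide synthase, was found in 22 members of PT I-PpoI and 7 of wild type. Pappa2, a protease that releases insulin-like growth factors, was found in 15 and 5. Both genes were found in 13 and 5 cells, so 86.7% and 100% of Pappa2 cells also held Nos1. Among members without Nos1, Pappa2 was in 0.197% and 0%. Cells with 2 or more UMIs of the pair numbered 19, or 1.83% (1.11 to 2.85%) of members, and 7, or 1.48% (0.598 to 3.03%). The subset was chosen on Nos1 and Pappa2, so these genes are no finding in it.

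Of the other 6 genes of the macula densa list, 5 were higher in the same cells, which were chosen without them, and Oxtr had 0 UMIs in them. Robo2, an axon guidance receptor, stood at 348 against 1.86 CPM and at 212 against 4.23 CPM in these cells against all other members, in PT I-PpoI and then in wild type. Bmp3 stood at 253 against 3.66 CPM and at 300.4 against 2.12 CPM. Avpr1a, the V1a vasopressin receptor, stood at 205 against 4.66 CPM and at 168 against 1.76 CPM, and Ramp3 at 157 against 2.65 CPM and at 117 against 3.53 CPM. Ptgs2, which encodes the cyclooxygenase COX-2 of renin control, was found in 13 and 4 of these cells, at 88.4 against 0 CPM and at 117 against 0 CPM.

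The same cells held less of several thick ascending limb transcripts. Umod stood at 2672 against 20085 CPM and at 7157 against 18425 CPM. Nccrp1 stood at 10.6 against 219 CPM and at 14.7 against 133 CPM, Cldn19 at 44.2 against 231 CPM and at 51.3 against 201 CPM, and Cldn10 at 283 against 1089.8 CPM and at 520.1 against 1163 CPM. Egf stood at 1308 against 8853 CPM and at 5209 against 5967 CPM, so it was much lower in PT I-PpoI and near the other members in wild type. Slc12a1 (6132 against 7091 CPM and at 7318 against 6463 CPM) and Kcnj1 (568 against 535 CPM and at 542 against 534 CPM) stood close to the other members. The values of wild type rest on 7 cells.

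**Figure D4:**
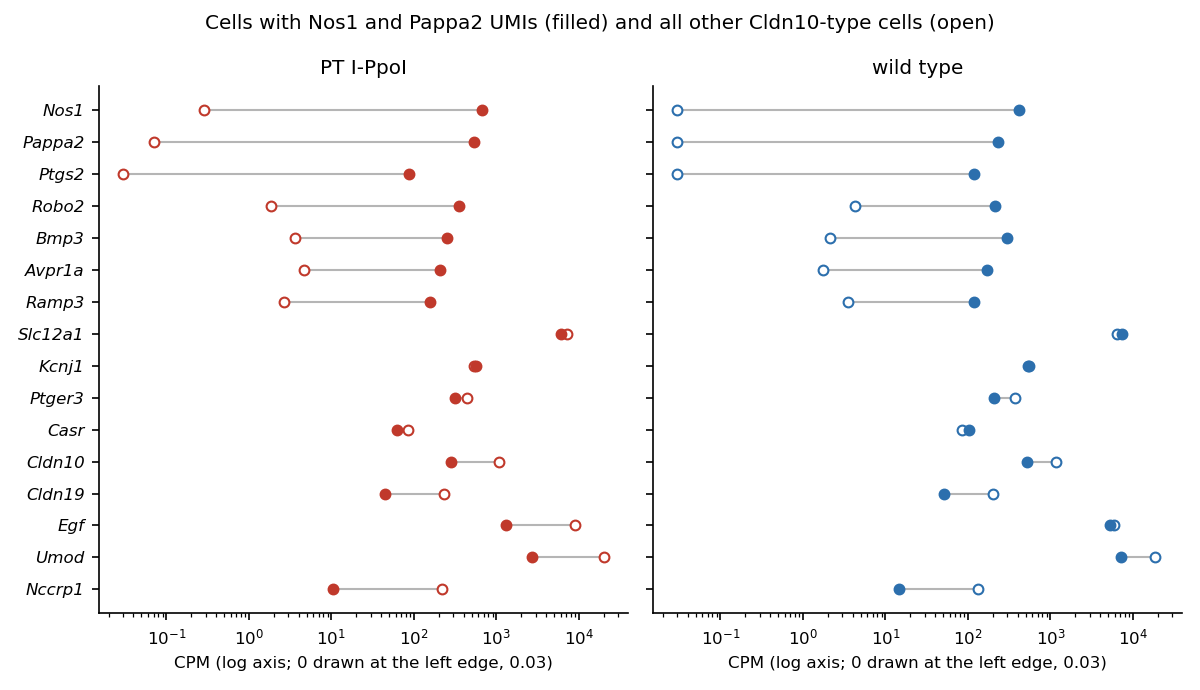
Summed CPM (log axis) of 16 genes in members with 2 or more Nos1 plus Pappa2 UMIs (filled, 19 cells of PT I-PpoI and 7 of wild type) and in all other members (open). Robo2, Bmp3, Avpr1a, Ramp3 and Ptgs2 are higher in the subset, Slc12a1 and Kcnj1 are alike, and Umod, Cldn19, Cldn10 and Nccrp1 are lower in both libraries.

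The comparison of PT I-PpoI with wild type asks whether thick ascending limb cells differ when the breaks are made in the proximal tubule. Of 11836 genes with 20 or more UMIs over both sums, 481 (4.06%) were 2-fold or more higher in Cldn10-type cells of PT I-PpoI and 478 (4.04%) were 2-fold or more lower. With the 53 genes that had no UMI in wild type set at the floor, 445 were higher. The counts were 56 and 82 among genes of 200 or more UMIs. Without the barcodes high in proximal tubule markers 286 were lower. Of all genes, 59.4% had a ratio above 0, and the median log2 ratio was 0.08. Subtracting the free RNA profile moved ratios by a median of -0.20, to a median of -0.10. The segment's own transcripts moved further, so that the ratios of Slc12a1, Umod and Ptger3 changed sign.

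Many transcripts of the segment's own work stood near each other in the libraries, Kcnj10 less so. Values are given below for PT I-PpoI and then wild type, followed by the log2 ratio of the first over the second. Slc12a1, which the rule used, was at 7054 and 6503 CPM, 0.12 (0.10 to 0.14), and -0.22 after subtraction. Umod was at 19407 and 17908 CPM, 0.12 (0.10 to 0.13), and -0.23 after subtraction. Kcnj1 was at 536 and 534 CPM, 0.01 (-0.07 to 0.09), and Bsnd at 149.6 and 128 CPM (0.23). Atp1b1, the beta subunit of the sodium pump, had 0.07. Kcnj10 was at 79.6 and 46.1 CPM, 0.78 (0.53 to 1.06). None of the 17 genes of the salt transport list was 2-fold or more higher, beside 4.06% of all genes, and 2 were 2-fold or more lower, beside 4.04%. Those 2 were Slc4a4 and Aqp11, which the proximal tubule also makes. The list, which holds Slc12a1, had a median of 0.19, and -0.14 after subtraction.

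Egf was at 8559 and 5932 CPM, 0.53 (0.51 to 0.55). It was 0.33 (0.30 to 0.37) in Cldn16-type cells and 0.34 among members with Cldn16 at 0. After free RNA was subtracted it was 0.19, and Egf in free RNA was at 2388 and 296 CPM. With cells thinned to 1000 UMIs, Egf was found in 94.3% (92.7 to 95.6%) and 87.5% (84.2 to 90.3%) of members. Nccrp1 was at 211 and 127 CPM, 0.73 (0.57 to 0.88), and 0.38 after subtraction. Ptger3 was at 435 and 360.2 CPM, 0.27 (0.18 to 0.37), and -0.07 after subtraction. In Cldn16-type cells Nccrp1 had -0.09 (-0.64 to 0.53). Casr was at 82.9 and 86.1 CPM, -0.06 (-0.25 to 0.15). Cldn10 itself, which the rule used, was at 1058 and 1133 CPM.

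The other lists of the segment's biology had medians near that of all genes. Their counts past 2-fold stand beside 4.06% of all genes higher and 4.04% lower. Tight junction genes, which include the rule's Cldn10, had 0.19 over 18 measured, with 1 lower past 2-fold, Cldn2 of the proximal tubule. Calcium and magnesium genes had 0.20 over 15, with Calb1 higher past 2-fold. Hormone receptors and signalling genes had 0.11 over 29, with Ptger1 higher at 3.79 and 1.35 CPM and Fgfr3 lower at 1.31 and 3.03 CPM. NKCC2 kinases and trafficking genes had 0.01 over 21, with 0 higher and 1 lower past 2-fold. Wnk4 was at 279.9 and 202 CPM, 0.47 (0.35 to 0.60), Wnk1 at 295 and 309 CPM (-0.07) and Stk39, which encodes SPAK, at 97.0 and 89.1 CPM (0.12). Secreted and luminal proteins had 0.11 over 20, with Gdf15, Cp and Ptgds higher past 2-fold. Spp1, osteopontin, was at 2097 and 1999.6 CPM. The 7 macula densa genes measured had 0.14, with 0 past 2-fold. After subtraction of free RNA the medians of the tight junction, calcium and magnesium, hormone and secreted protein lists were below 0.

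Transcription factors had a median of 0.25 over 35, with 29 above 0, beside 59.4% of all genes. Subtracting free RNA moved the ratios of all genes by a median of -0.20. Past 2-fold were 3, all higher: Gata3 at 6.68 and 1.35 CPM, Tfap2a at 3.86 and 1.01 CPM, and Sox9. Irx1 had 0.58 (0.42 to 0.76) and Ppargc1a, the coactivator of mitochondrial genes, 0.46 (0.34 to 0.58), at 309 and 225 CPM. Esrrg had 0.51 and Esrrb 0.11. Energy lists were close to 0. The 44 nuclear respiratory chain genes had a median of 0.07 with 0 past 2-fold, and the 13 mitochondrially encoded genes 0.05 with 0. The 20 glycolysis genes had 0.08 with Slc16a1 lower, and the 21 fatty acid oxidation genes -0.05 with Cd36 and Ehhadh lower. These counts stand beside 4.06% of all genes 2-fold or more higher and 4.04% lower.

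Genes of the DNA damage response were described by a list for break repair and a list of p53 targets. The 24 double-strand break repair genes had a median of 0.18. Of them, 0 were past 2-fold in either direction, beside 4.06% of all genes higher and 4.04% lower. In a list of this size a count of 0 lies near those shares. Rif1 was at 53.4 and 48.1 CPM and Trp53bp1 at 24.3 and 21.9 CPM. The 30 p53 targets had a median of 0.08, with 16 above and 14 below 0. Of these, 4 were 2-fold or more higher, 3 with the gene at 0 in wild type set at its floor, and 0 were lower, beside 4.06% and 4.04% of all genes. Cdkn1a was at 6.89 and 9.08 CPM, -0.42 (-1.02 to 0.27), Mdm2 at 34.8 and 30.6 CPM, 0.18 (-0.14 to 0.52) and Ccng1 at 58.0 and 65.6 CPM (-0.18). Past 2-fold at the floor were Gdf15, Plk2 (11.4 and 5.38 CPM) and Fas (1.86 and 0.673 CPM). Gdf15 encodes a stress-induced cytokine and was at 19.8 and 3.03 CPM, 2.64 (1.77 to 3.86), in 130 and 7 members. Its 5 highest cells held 28.5% of its UMIs in PT I-PpoI, and free RNA held it at 70.7 and 27.5 CPM. In Cldn16-type cells Gdf15 had 0.03 (-1.30 to 1.89). Phlda3, with 27 and 0 UMIs, was at least 1.84-fold higher, against a floor of 3 counts in the wild-type sum.

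Heat shock genes had a median of -0.01 over 17, and 3 were 2-fold or more higher, beside 4.06% of all genes. Hspa1a encodes inducible HSP70 and was at 257 and 67.6 CPM, 1.92 (1.72 to 2.14). Hspa1b, a near-identical copy whose reads may be split with it, was at 195 and 63.2 CPM, 1.62 (1.41 to 1.85). Hspb1 had 1.07. Hspa1a was found in 68.1% and 24.2% of members, and in 15.5% (13.4 to 17.9%) and 5.51% (3.63 to 7.97%) after thinning. It was also higher in Cldn16-type cells, by a log2 ratio of 2.23 (1.81 to 2.71), and in free RNA, at 592 and 66.4 CPM. Immune cells held it in 57.3% and 22.9% after thinning. After free RNA was subtracted at the share set by proximal tubule markers, Hspa1a had 1.71 and Hspa1b 1.38. The part of free RNA in these ratios was not tested further.

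Immediate early genes had a median of 0.45 over 23, with 18 above 0, beside 59.4% of all genes. Counts past 2-fold in this paragraph stand beside 4.06% of all genes higher and 4.04% lower. Jun had 0.58 (0.42 to 0.74), Jund 0.55 and Fos 0.25, and Cyr61 and Fosl2 were past 2-fold. Interferon response genes had 0.39 over 26, with Cxcl10, Ifit2, Ifit3 and Ifit3b higher and Rsad2 lower past 2-fold. Cxcl10, a T cell chemokine, was at 28.4 and 6.39 CPM, 2.12 (1.49 to 2.90). It was in 78 and 8 members, and 5 cells held 46.8% and 84.2% of its UMIs. Class I presentation genes had 0.06 over 18, with H2-K1 at 0.41 and H2-M3 lower past 2-fold. Class II genes had -0.71 over 6, at a summed 99.5 and 188 CPM in members and 1804 and 2259 CPM in free RNA, and 0.36 without the called doublets. NF-kB genes had 0.29 over 15, with Tnfaip3 higher past 2-fold.

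Injury markers had a median of 0.16 over 23. Counts past 2-fold in this paragraph stand beside 4.06% of all genes higher and 4.04% lower. Havcr1, which encodes KIM-1, had 23 UMIs in PT I-PpoI, all in 1 cell, and 0 in wild type. Lcn2 was at 12.2 and 15.5 CPM, -0.36 (-0.82 to 0.16). Sox9, a factor of tubular repair, had 36 UMIs in 28 members and 0 in wild type, so it was at least 2.46-fold higher. Vim (8.06 and 1.35 CPM) and Cp were past 2-fold. Hypoxia genes had 0.05 over 16, with Ndrg1 lower at 74.2 and 225 CPM beside 298 and 608 CPM in free RNA. Unfolded protein response genes had -0.17 over 25 with 0 past 2-fold, beside 4.06% of all genes higher and 4.04% lower. Among them was Hspa5, the chaperone BiP, at 305 and 406 CPM (-0.42). Antioxidant genes had -0.27 over 20, with Gpx3, Gpx1 and Hmox1 lower past 2-fold. Gpx3 was at 117 and 1667 CPM in members and 1123 and 5686 CPM in free RNA. Cell cycle genes had 0.37 over 19, with 6 higher past 2-fold, beside 4.06% of all genes. Among the 6 was Top2a, whose UMIs in PT I-PpoI lay in 11 members with 89.9% in 5 of them. Ccnd1, cyclin D1, was at 485 and 312 CPM, 0.64 (0.54 to 0.74).

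**Figure D5:**
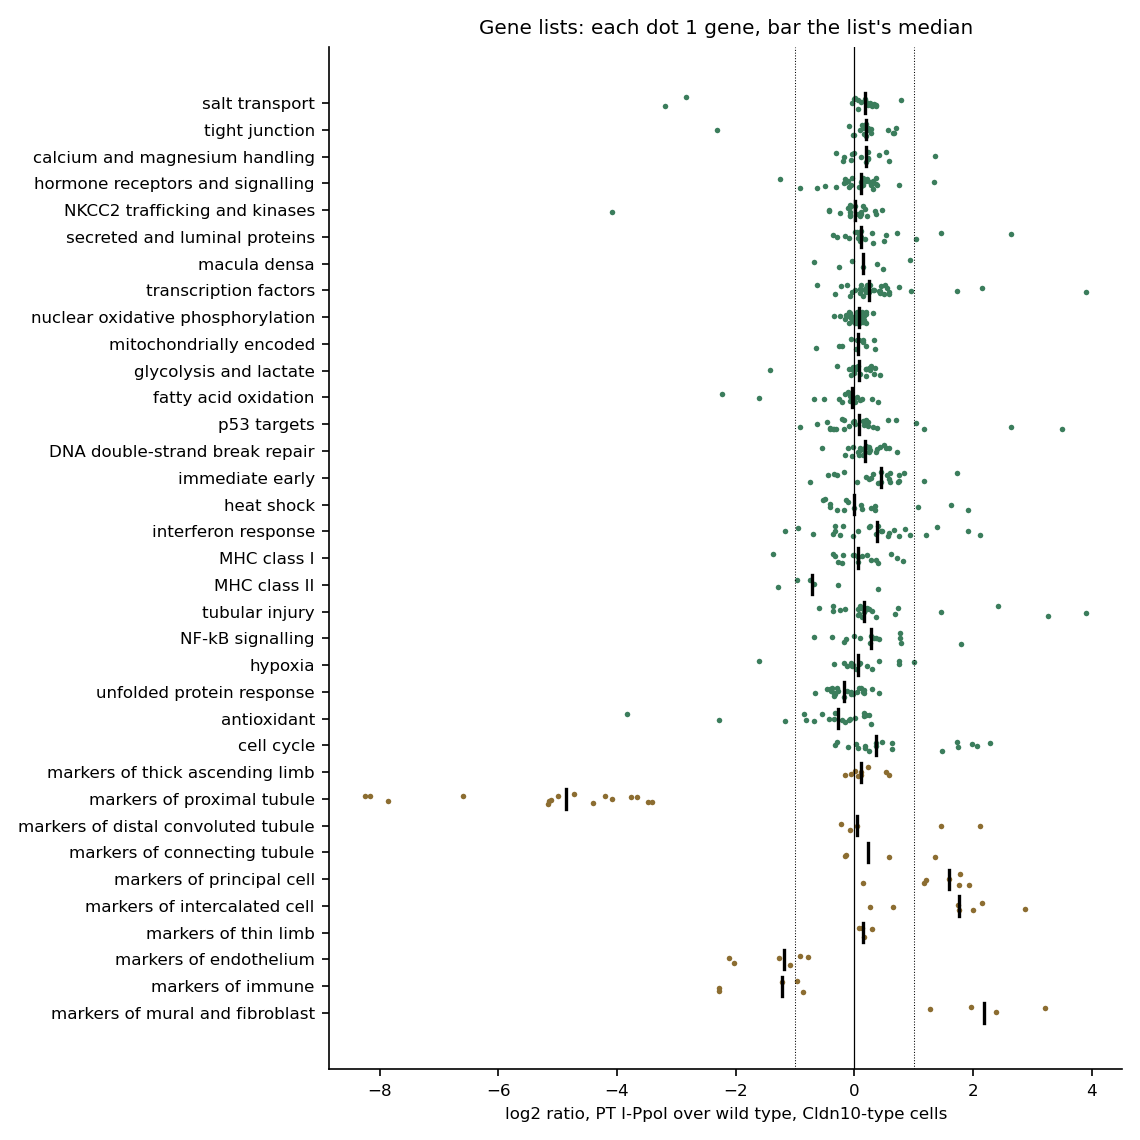
Log2 ratio of PT I-PpoI over wild type in Cldn10-type cells for each measured gene (dot) of lists with 4 or more genes, with the list's median as a black bar. Dotted lines mark 2-fold. Lists of the segment's own biology lie near 0, while all 16 proximal tubule markers lie far to the left, with a median of -4.86, and principal and intercalated cell markers to the right.

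The genes with the largest ratios between the libraries were mostly those of other cell types. The 12 named lower genes were Kap, Slc7a13, Slc22a6, Ces1f, Guca2b, Pck1, Ugt2b38, Cyp4b1, Kcnj15, Cyp2j5, Mep1a and Acsm2, mainly transcripts of the proximal tubule. Kap was at 8.89 and 2692 CPM, beside 400 and 11358 CPM in free RNA. All 16 proximal tubule markers were 2-fold or more lower, beside 4.04% of all genes. They stood at a summed 115 and 5147 CPM in members and 1283 and 18789 CPM in free RNA. Single cells followed the same split. In PT I-PpoI 645 of 1037 members held none of the 16 markers and 3 held over 100 per 10000, and in wild type 1 of 472 held none and 55 held over 100. If all their proximal tubule UMIs came from free RNA, it would make up 8.99% and 27.4% of members' UMIs. The corresponding values were 2.88% and 14.6% in Cldn16-type cells.

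Of the 12 named higher genes, Aqp2, Fxyd4 and Hsd11b2 mark principal cells and Atp6v1g3 intercalated cells. Ren1, renin, had 1613 UMIs in PT I-PpoI, of which 1383 lay in 1 cell, and 4 in wild type. Aqp2 was at 174 and 50.8 CPM, in 401 and 37 members, beside 1158 and 253 CPM in free RNA. Counts past 2-fold in this paragraph stand beside 4.06% of all genes higher and 4.04% lower. Principal cell markers had a median of 1.59, with 6 of 7 past 2-fold, and intercalated cell markers 1.77, with 5 of 7. Their summed levels in members were 424 and 145 CPM, and 123 and 34.3 CPM, against 2908 and 712 CPM, and 573 and 205 CPM, in free RNA. Mural and fibroblast markers had 2.18 over 4 genes (1.62 with Dcn at its floor), endothelial markers -1.18 over 6 and immune markers -1.23 over 5. Markers of the distal convoluted tubule had 0.05 over 5, with Slc12a3 and Pvalb higher past 2-fold, and of the connecting tubule 0.22 over 4, with Calb1 higher past 2-fold. Slc12a3, which the rule limited, had UMIs in 268 and 14 members, at 22.6 and 5.05 CPM beside 726 and 96.0 CPM in free RNA. Calb1 was at 30.6 and 11.8 CPM beside 745 and 78.4 CPM. Markers of thin limbs had 0.15 and the 1 podocyte marker measured -0.77. The list of thick ascending limb markers, which holds the rule's Slc12a1, had 0.12 over 9, with none past 2-fold. The part of free RNA and of mixed barcodes in these ratios was not tested. Scrublet called 10 and 25 members as doublets.

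The named higher genes that are no markers of those cells were Hspa1a, Hspa1b, Cdc42bpg, Gsr, Plet1, Ehd1 and Ptgds. Gsr, glutathione reductase, was at 116 and 50.5 CPM, 1.20 (0.96 to 1.45), and had 1.16 (0.73 to 1.66) in Cldn16-type cells. Cdc42bpg, a kinase that acts downstream of Cdc42, was at 61.0 and 19.8 CPM, 1.61 (1.24 to 2.03), and had 1.73 (0.87 to 2.88) in Cldn16-type cells. Ehd1, an endosomal recycling protein, had 1.10 (0.80 to 1.43), Plet1 1.12 (0.85 to 1.41) and Ptgds 1.04 (0.73 to 1.37). After free RNA was subtracted, Plet1 had 0.85 and Ptgds 0.69, no longer past 2-fold, while Gsr, Cdc42bpg and Ehd1 had 1.33, 1.31 and 1.56. With cells weighted equally Ptgds had 0.77. The 5 highest cells held 9.45% of Plet1 and 15.9% of Ptgds UMIs in PT I-PpoI. UMIs of Gsr, Cdc42bpg and Ehd1 were spread over 701, 517 and 564 members of PT I-PpoI. The 5 highest cells held 2.73%, 3.16% and 2.97% of them. In free RNA, Gsr stood at 79.5 and 58.3 CPM, Cdc42bpg at 33.8 and 4.78 CPM, Ehd1 at 70.3 and 54.4 CPM, Plet1 at 76.1 and 16.4 CPM and Ptgds at 47.8 and 5.98 CPM.

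To see the segment's own transcripts apart from free RNA, genes were taken whose CPM in members was 2 or more times that in free RNA in both libraries, with 50 CPM or more in the higher library. This rule was added after the values were seen. Free RNA held more of the segment's transcripts in PT I-PpoI: the 9 thick ascending limb markers summed to 11493 CPM there and 1770 CPM in wild type. The rule could thus leave out segment genes lower in PT I-PpoI, and it partly sets the counts above 0 below. It gave 184 genes, whose log2 levels had a Pearson correlation of 0.986 across genes between the libraries; genes are not independent replicates. Of these, 148 had a ratio above 0 and 36 below, with a median of 0.18 and a range from the 5th to the 95th percentile of -0.16 to 0.58. After free RNA was subtracted 53 were above 0 and the median was -0.12. With 50 CPM or more required of the mean of the libraries instead, 143 of 179 genes were above 0, and 49 after subtraction, with medians of 0.18 and -0.12. Subtraction moved these 179 ratios by a median of -0.30, so the sign of a segment gene's ratio within about that size is not settled. The highest ratio was that of Tmem86a, at 69.7 and 34.3 CPM, 1.02 (0.73 to 1.33), and 0.73 after subtraction, so that no gene of the 179 was then past 2-fold. Tmem86a, Lrrc31 (0.76), Kazn (0.71) and Adcy1 (0.71) reached 50 CPM in PT I-PpoI alone and are given as a description. Hs6st1, a heparan sulfate sulfotransferase, reached it in both, at 124 and 73.3 CPM, with 0.76 and 0.52 after subtraction. The lowest were Sec14l1 at -0.45 (-0.56 to -0.33), Eprn at -0.38 and Kcnq1ot1 at -0.38.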

How the data were processed

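The authors deposited raw UMI counts per gene and barcode for 2 libraries of 10x 3′ single-cell RNA-seq, with 31053 features, aligned to mm10. Per the submitters' processing notes, Cell Ranger 3.1 and Seurat 3 were used, while the file headers name Cell Ranger 4. The deposited counts hold all barcodes, so the filters on barcodes were set here. Group and library are the same thing with 1 library per group, so no test was made. Counts were summed over the cells of a type and scaled to counts per 1000000 (CPM). Log2 ratios used a prior count of 0.5, for genes of 20 or more UMIs over the sums compared. Intervals are exact binomial at 95%. The floor for a sum of 0 was 3 counts.

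Named genes had 50 CPM or more in the higher library or type and 20 or more UMIs there. For the libraries, the 12 largest ratios each way were taken, with the same sign when cells were weighted equally and when free RNA was subtracted. After subtraction Kap and Guca2b stood at -2.61, the value that the prior count gives to 0 UMIs in both sums. Their sign there was set by the sizes of the sums and not by their counts. For the types, the 12 largest each way were ranked by the smaller of the libraries' ratios, with the same sign in both. Mitochondrially encoded, ribosomal, haemoglobin, immunoglobulin and sex-linked marker genes and unnamed gene models were left out. Each list gives its counts, its median and its genes past 2-fold. The members and the 36 lists (617 of 618 symbols found) were chosen with earlier results of these data known. Free RNA is the summed profile of barcodes of 100 or fewer UMIs. It was subtracted, as an alternative, at the share that would account for all proximal tubule marker UMIs. Scrublet (Scanpy 1.11.5) called 1.14% and 3.00% of kept barcodes as doublets, which were kept. TMM factors came from edgeR 4.0.16. Coordinates are from GENCODE for mm10, in which 31011 feature IDs were matched, and promoter sequences from RefSeq GRCm38.p6. Scripts used Python 3.11.15 with NumPy 2.4.6, SciPy 1.17.1 and pandas 2.3.3, and R 4.3.3, and were tested on simulated data. Results for some genes are not reported here.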

Additional observations from a re-analysis of the deposited data

Results flagged for a closer look

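Mural and fibroblast markers stood in opposite directions between the claudin types. Their median log2 ratio of PT I-PpoI over wild type was 2.18 in Cldn10-type cells and -2.92 in Cldn16-type cells. Their median log2 ratio of Cldn10-type over Cldn16-type cells was 2.22 for PT I-PpoI and -4.29 for wild type. The list had 4 measured genes in the first comparison and 2 in the second, and 5 Cldn10-type cells of PT I-PpoI held 82.6% of the Rgs5 UMIs there. With 1 library per group, the difference was not tested.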

How the results depend on the processing

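No paired analysis was possible because each group has 1 library, and no library could be left out. At a mitochondrial limit of 30% the members' share of kept barcodes was 10.99% for PT I-PpoI and 2.76% for wild type, and 64 and 24 genes were 2-fold or more higher and lower in Cldn10-type than in Cldn16-type cells in both libraries. With barcodes thinned to 1000 UMIs, an alternative chosen after seeing the data, the shares were 13.2% and 3.52%, and the Cldn10-type share of both claudin types was 90.2% and 90.4%. The wild-type share was 3.95% with Slc12a1 at 20 or more per 10000, and 7.88% without barcodes high in proximal tubule markers, where 286 genes were lower in PT I-PpoI. The limit on these markers also cut the total of kept barcodes, and 417 wild-type members were left. With cells weighted equally 790 genes were higher in PT I-PpoI, and with free RNA subtracted 112 were lower in Cldn10-type cells. With all genes of 1 or more UMIs 1070 were higher, and genes 2-fold or more lower in PT I-PpoI Cldn10-type cells numbered 1893, while the type counts were 278 and 326. With genes of 200 or more UMIs only, also chosen after seeing the data, they were 56 and 82, and 21 and 12, since fewer genes were compared. Other causes were not tested. With free RNA subtracted, the wild-type medians of Cldn10-type over Cldn16-type cells for MHC class II, principal, intercalated and immune cell markers were -1.79, the value that the prior count gives to 0 UMIs in both sums. Of list medians over all alternatives, 869 stayed within an interval set by the spread of the list's own genes. Another 121 left it and 4 changed sign past 2-fold. This interval is not one of counting error, and in the shortest lists it spans all their genes, so staying within it is a weak check. Of values of named genes, 1006 moved by less than their counting error, 212 by more and 0 changed sign past 2-fold. Genes named between the libraries were chosen to keep their sign with cells weighted equally and with free RNA subtracted. For those alternatives their 0 was set in advance. TMM factors moved the ratios of PT I-PpoI over wild type by -0.05. The alternative with 3 or more raw Slc12a1 UMIs was also added after seeing the data. Depth limits wild type most, where members held a median of 4291.5 UMIs.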
